A study of Mus musculus with 10 samples.

Results

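The genes described here encode 7 subunits of cytochrome c oxidase, complex IV of the respiratory chain: Cox5a, Cox5b, Cox6b1, Cox6c, Cox7b, Cox7c and Ndufa4. They are called single-isoform here, although Cox6b1, Cox7b and Ndufa4 have paralogs. They were chosen by gene symbol, as the subunits left after the Cox4, Cox6a, Cox7a and Cox8 isoform pairs are set aside. Probe sets, the groups of probes that read one transcript on the array, were used where the platform annotation gives them 1 symbol. Of the 19938 genes with such a probe set, 6 of the 7 subunits had one, with 9 probe sets in all, and each passed the filter that kept 13957 genes for testing. The probe sets of Cox7c are annotated to a pseudogene as well, so that Cox7c has no value of its own below.

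Complex IV takes electrons from cytochrome c and passes them to oxygen, pumping protons across the inner mitochondrial membrane as it does so. Its catalytic core is made from mitochondrial DNA, and a shell of small nuclear-encoded subunits is added around the core by dedicated assembly factors. PGC-1α and PGC-1β are coactivators known for raising transcription of such nuclear genes, acting with factors such as NRF-1, GABP and the ERR nuclear receptors. The heart depends on this chain for most of its ATP.

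RNA came from the ventricles of 10 mice at 3 months of age, with 1 Affymetrix array per mouse. By title, 5 arrays are PGC-1a-/- and 5 are PGC-1a-/-bf/f/MerCre, and the source names give floxed PGC-1b and MerCre, a Cre whose recombinase activity tamoxifen induces, to the mice of both groups. Under the titles alone the groups would also differ in genotype. All mice lacked PGC-1α, and at 2 months the second group received tamoxifen (50 mg/kg per day on 2 days) in sunflower seed oil and the first the oil alone, with hearts collected 1 month later. The groups are called vehicle and tamoxifen here, and a change is the tamoxifen mean minus the vehicle mean in log2 units, with its standard error after ±. Which promoter drives MerCre is not stated in the labels. An effect of tamoxifen or of Cre itself cannot be told apart from the loss of PGC-1β.

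The array did not show the labelled deletions. The Ppargc1a probe set read 10.81 and 11.20 on average in mice without PGC-1α. The Ppargc1b probe set read 9.76 on average in the vehicle arrays and 10.03 in the tamoxifen arrays, a rise of 0.27 ± 0.061 (limma adjusted p = 0.00529). Whether it lies in the deleted part is not stated in the labels, so every direction below rests on the labels. The ventricular gene Myl2 was bright and alike in both groups (13.95 and 13.93). The 3 atrial markers, Myl7, Sln and Myl4, were not called, but their summed signal varied more among the tamoxifen hearts. It ran from 4199 to 5249 in the vehicle arrays and from 2688 to 6657 in the tamoxifen arrays. The changes of the 9 cardiomyocyte markers lay between −0.16 (Ryr2) and 0.13 (Tnnc1), with 1 called higher and 1 lower. Of the other cell types' markers, 6 of 8 of macrophages and 5 of 8 of fibroblasts were called higher, and 0 of 7 of endothelium, where 13.6% of all tested genes were called higher. The summed signal of the macrophage markers ran from 5295 to 6089 in the vehicle arrays and from 6266 to 7564 in the tamoxifen arrays, and that of the fibroblast markers from 16724 to 17579 and from 18617 to 20333, while the 9 cardiomyocyte markers summed to 138084 to 139733 and 140458 to 142841. The part of these cell types in the falls below was not tested. In whole ventricle, fewer cells of a type and less RNA per cell cannot be told apart. Tamoxifen array 2 stood apart, with a median signal over all probe sets of 7.31 against 7.18 to 7.24 on the other 9 arrays.

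All 6 readable subunit genes were lower in the tamoxifen arrays, by between 1.17-fold and 2.02-fold. In each of them every tamoxifen array lay below every vehicle array. Cox5b and Ndufa4 fell to 49.5% and 52.2% of the vehicle level, and Cox6b1 and Cox5a to 62.4% and 66.8%. Cox6c and Cox7b kept 82.2% and 85.5%. These values come from the brightest probe set of each gene, and the second probe set of Cox7b kept 74.4%. Of all tested genes 8.28% were called lower by limma at an adjusted p of 0.05, and in 6.12% all 5 tamoxifen arrays lay below all 5 vehicle arrays. The median change of the 6 was −0.63, against 0.014 over all tested genes. Without tamoxifen array 2, all 6 were again called lower, with changes from −1.01 for Cox5b to −0.23 for Cox7b.

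**Figure D1:**
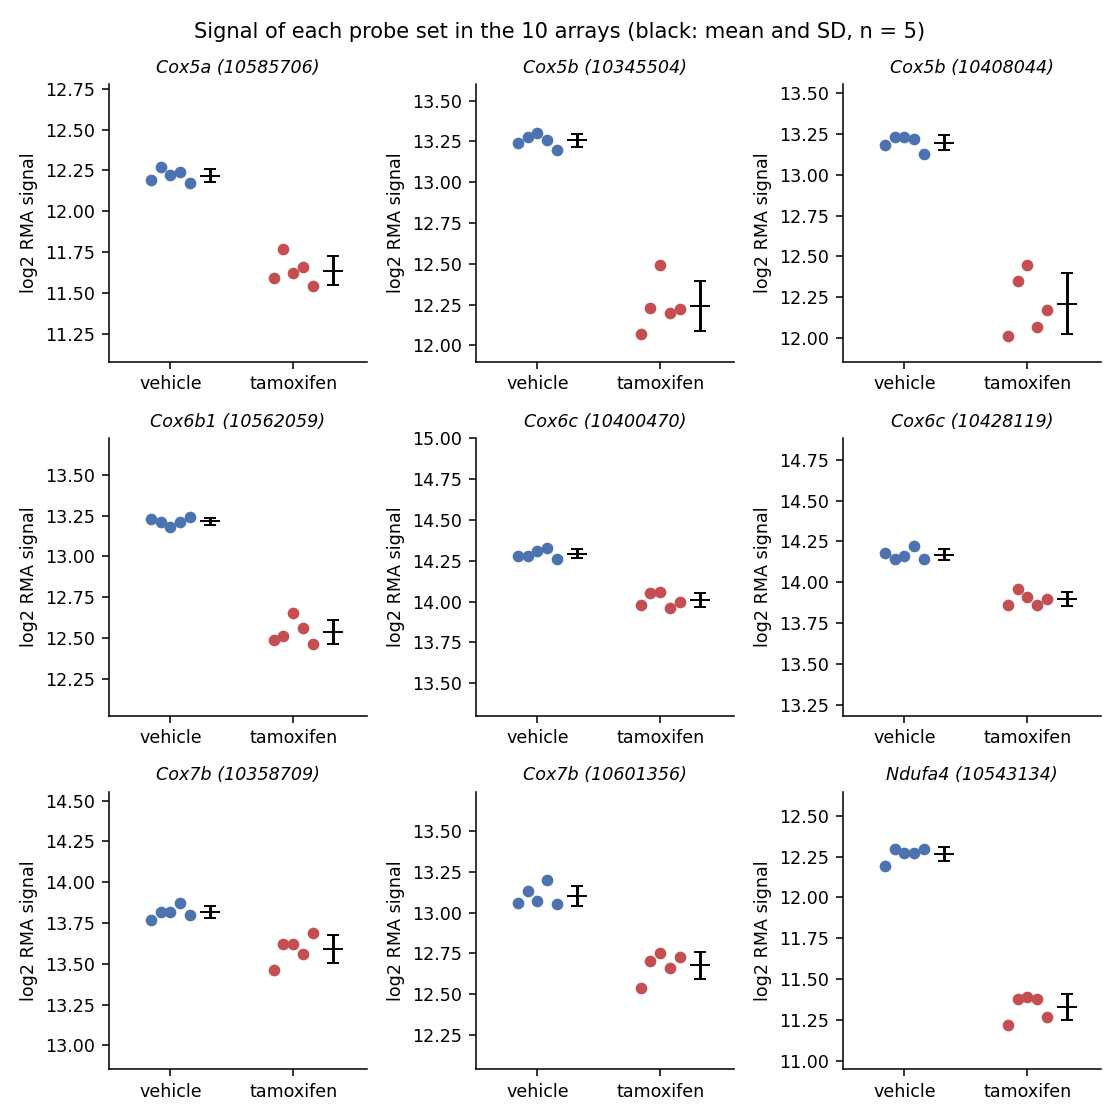
Signal (log2 RMA, a normalized array signal) of the 9 probe sets in the 5 vehicle arrays (blue) and 5 tamoxifen arrays (red), arrays 1 to 5 from left to right, with the mean and SD in black. All panels span the same number of log2 units, so that the drop of Cox5b from 13.26 to 12.24 can be set against that of Cox6c from 14.29 to 14.01.

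The matrix-facing subunits came apart in size. Cox5b encodes a zinc-binding subunit on the matrix side of the complex. Its brighter probe set (10345504) read 13.24, 13.28, 13.30, 13.26 and 13.20 in vehicle arrays 1 to 5 and 12.07, 12.23, 12.49, 12.20 and 12.22 in tamoxifen arrays 1 to 5. Tamoxifen array 3 was the highest of its group and still lay 0.71 below the lowest vehicle array. The change was −1.01 ± 0.065 (limma adjusted p = 1.39e-08), with 23 of the 13957 tested genes at a lower value. Its other probe set (10408044) changed by −0.99 ± 0.074, from 13.20 ± 0.043 to 12.21 ± 0.19 (SD, n = 5). Cox5a, the neighbouring matrix-side subunit, read 12.19, 12.27, 12.22, 12.24 and 12.17 in the vehicle arrays and 11.59, 11.77, 11.62, 11.66 and 11.54 in the tamoxifen arrays. Here tamoxifen array 2 was the highest of its group, and the groups did not overlap. Cox5a fell by 0.58 ± 0.051 (limma adjusted p = 4.90e-07) with a 95% interval of the change from −0.69 to −0.47.

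Ndufa4 was first assigned to complex I and is now counted as a subunit of complex IV. Its probe set (10543134) read 12.19, 12.30, 12.27, 12.27 and 12.30 in the vehicle arrays and 11.22, 11.38, 11.39, 11.38 and 11.27 in the tamoxifen arrays. Vehicle array 1 was the low value of its group, and the gap to the highest tamoxifen array was still 0.80. The change of −0.94 ± 0.050 (limma adjusted p = 3.23e-09) left 52.2% of the vehicle level (95% interval 48.5% to 56.2%). Ndufa4l2, the paralog that hypoxia is known to raise, read 8.23 and 8.07 on average, a difference of −0.16 ± 0.081 that did not pass the test (limma adjusted p = 0.174). The paralog AA467197 was below the filter, with a mean of 6.11.

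Cox6b1 encodes the subunit on the intermembrane-space side, where the monomers of the dimeric complex meet. It read 13.23, 13.21, 13.18, 13.21 and 13.24 in the vehicle arrays, the narrowest spread of the 6 genes (SD 0.023, n = 5), and 12.49, 12.51, 12.65, 12.56 and 12.46 in the tamoxifen arrays. The groups were separated by 0.53 at their nearest values. The change was −0.68 ± 0.048 (limma adjusted p = 4.24e-08). Its testis-type paralog Cox6b2 was dim in both groups (6.76 and 6.79, adjusted p = 0.844), and Cox7b2, the corresponding paralog of Cox7b, was below the filter at a mean of 4.86.

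Cox6c and Cox7b fell least, and by their brighter probe sets they were the brightest of the 6. Cox6c (10400470) read 14.28, 14.28, 14.31, 14.33 and 14.26 in the vehicle arrays and 13.98, 14.05, 14.06, 13.96 and 14.00 in the tamoxifen arrays. The groups lay 0.20 apart at their nearest values. It fell by 0.28 ± 0.045 (limma adjusted p = 0.000246), and its second probe set (10428119) gave −0.27 ± 0.044. Cox7b (10358709) read 13.77, 13.82, 13.82, 13.87 and 13.80 in the vehicle arrays and 13.46, 13.62, 13.62, 13.56 and 13.69 in the tamoxifen arrays. Tamoxifen array 5 came within 0.08 of the lowest vehicle array. The change was −0.23 ± 0.051 (limma adjusted p = 0.00455).

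The second probe set of Cox7b gave a larger fall from a lower vehicle mean, 13.10 against 13.82. It (10601356) read 13.06, 13.13, 13.07, 13.20 and 13.05 in the vehicle arrays and 12.54, 12.70, 12.75, 12.66 and 12.73 in the tamoxifen arrays. That is a change of −0.43 ± 0.053 (limma adjusted p = 2.46e-05), which left 74.4% of the vehicle level where the brighter probe set left 85.5%. The fall of the dimmer probe set was the larger by 0.20 ± 0.022 within the arrays (exact two-sided permutation p = 0.00794, adjusted p = 0.0238 over the 3 genes with a second probe set). For Cox5b and Cox6c the probe sets did not differ past the threshold (differences of 0.026 ± 0.042 and 0.012 ± 0.014, exact p = 0.683 and 0.492). This comparison was made after the values were seen. The annotation gives both Cox7b probe sets the same transcript accessions, and near-identical copies in the genome were not separated here.

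By their vehicle means Cox6c (14.29) and Cox7b (13.82) were near the top of the array's scale, where the highest value of any probe set on any array was 14.76. At least as bright as Cox7b in the vehicle arrays were 26 tested genes, itself included, of which 6 were called lower and 0 higher. Cox6c and Cox7b are among the 6. Of all tested genes 8.28% were called lower and 13.6% higher. The deepest fall among the 26 was that of Atp5g1, a subunit of ATP synthase, at −0.58. Cycs, the gene of cytochrome c, lay just under Cox7b in the vehicle arrays (13.81) and fell by 0.70. Of the 2 subunits, the brighter Cox6c had the lower change. The second probe set of Cox7b read 13.10 in the vehicle arrays and fell by 0.43. Whether signal and size of change are related was not tested.

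**Figure D2:**
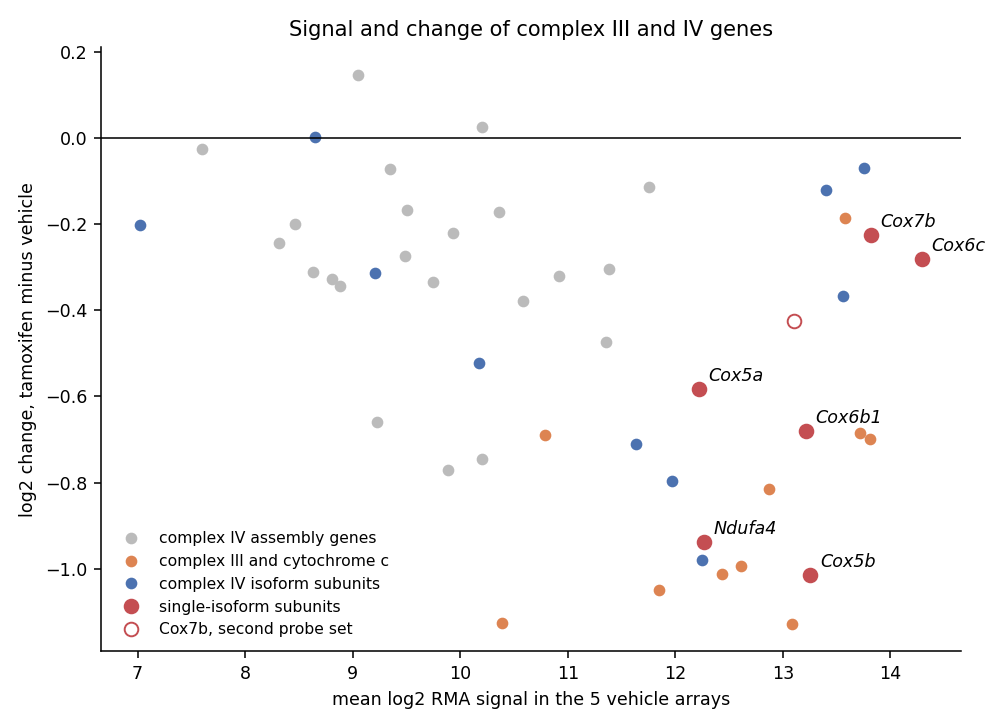
Mean log2 signal in the 5 vehicle arrays (x axis) against the log2 change, tamoxifen minus vehicle (y axis), for the 6 single-isoform subunits (red), complex IV isoform subunits (blue), complex IV assembly genes (grey) and complex III with cytochrome c (orange), 1 point per tested gene. Cox6c and Cox7b lie at 14.29 and 13.82 on the x axis with changes of −0.28 and −0.23, and the open circle is the second probe set of Cox7b at −0.43.

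The signals of the 6 genes did not fall by one common amount. Of the 15 pairs of genes, 12 changed unequally when the differences within arrays were compared between groups by a two-sided exact permutation test (p = 0.00794 for each, which is the lowest p possible here, and 0.00992 after adjustment over the 15 pairs). That p is reached only where the within-array differences of the groups do not overlap, so the lack of overlap in these 12 is the same result. The 12 divide the genes into steps, with Cox5b and Ndufa4 lowest, Cox6b1 and Cox5a between, and Cox6c and Cox7b highest. Neighbours within a step did not differ past the threshold. Cox5b minus Ndufa4 was −0.076 ± 0.058 (exact p = 0.230, adjusted p = 0.230), Cox5a minus Cox6b1 was 0.098 ± 0.053 (exact p = 0.103, adjusted p = 0.119) and Cox6c minus Cox7b was −0.056 ± 0.035 (exact p = 0.175, adjusted p = 0.187). Between steps, Cox6b1 fell less than Ndufa4 by 0.26 ± 0.035, and the change of Cox5b minus that of Cox7b was −0.79 ± 0.060. With the dimmer probe set of the genes that have a second one, a choice made after the data were seen, 13 pairs differed. The added one was Cox6c against Cox7b, where Cox7b then fell more, by 0.16 ± 0.037 (exact p = 0.00794, adjusted p = 0.00992). Cox5a minus Cox7b was then −0.16 ± 0.055, so the step of Cox7b depends on the probe set.

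**Figure D3:**
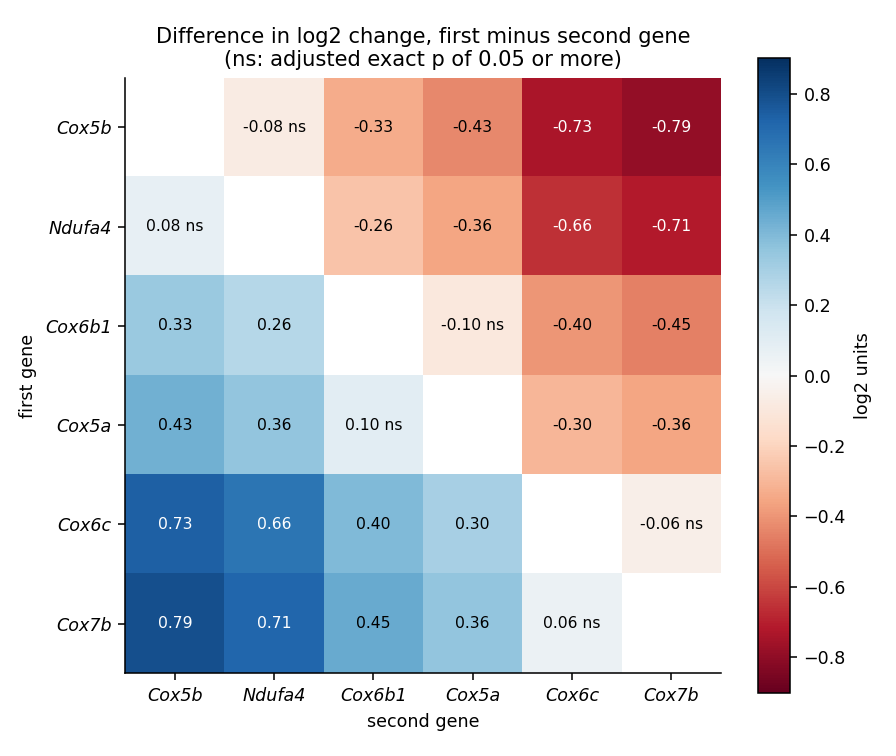
Difference in log2 change between each pair of the 6 genes, the gene of the row minus the gene of the column. Each gene is read from its brightest probe set, and the order runs from the deepest fall (Cox5b) to the smallest (Cox7b). Red marks a deeper fall of the row's gene, and ns marks the 3 pairs with an adjusted exact p of 0.05 or more, which lie next to the diagonal.

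Across the 5 tamoxifen hearts the 6 genes varied together only in part. Averaged over the 6 genes, tamoxifen array 1 was the lowest, at −0.71 relative to the vehicle mean, and array 3 the highest, at −0.54, with arrays 2, 4 and 5 at −0.58, −0.62 and −0.65. The vehicle arrays lay between −0.027 and 0.020 on the same measure. Array 1 was the lowest of its group for Cox5b, Cox7b and Ndufa4, array 5 for Cox5a and Cox6b1, and array 4 for Cox6c. The spread was wider in the tamoxifen group for all 6 genes, from 0.023 to 0.045 (SD, n = 5) in the vehicle arrays against 0.044 to 0.15 in the tamoxifen arrays. The difference in spread was not tested.

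Promoters are shown for the deepest fall (Cox5b), the smallest by the brightest probe sets (Cox7b) and the gene with the most motif matches (Cox6b1). The choice thus rests in part on the matches themselves. Ndufa4, with a change of −0.94, had no match and is not shown. Whether promoter letters and size of change are related was not tested. RefSeq sequences for assembly GRCm38.p6 were at hand for 6 of the 7 genes, Cox6c being the other. Each is given 5′ to 3′ on the strand of the gene, from 250 bases before the transcription start to the base before it, with capitals for the matched motifs.
Cox5b, chr1:36691237-36691486, plus strand: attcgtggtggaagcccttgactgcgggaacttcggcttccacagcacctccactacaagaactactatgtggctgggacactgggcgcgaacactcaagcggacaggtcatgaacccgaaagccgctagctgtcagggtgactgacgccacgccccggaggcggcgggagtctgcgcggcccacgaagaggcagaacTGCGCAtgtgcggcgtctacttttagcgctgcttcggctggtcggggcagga
Cox6b1, chr7:30626115-30626364, minus strand: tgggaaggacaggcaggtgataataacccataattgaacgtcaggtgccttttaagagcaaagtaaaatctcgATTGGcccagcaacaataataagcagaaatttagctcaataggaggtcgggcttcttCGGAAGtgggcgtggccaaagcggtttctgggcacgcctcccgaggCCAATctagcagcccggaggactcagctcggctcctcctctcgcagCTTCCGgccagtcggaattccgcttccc
Cox7b, chrX:106015450-106015699, plus strand: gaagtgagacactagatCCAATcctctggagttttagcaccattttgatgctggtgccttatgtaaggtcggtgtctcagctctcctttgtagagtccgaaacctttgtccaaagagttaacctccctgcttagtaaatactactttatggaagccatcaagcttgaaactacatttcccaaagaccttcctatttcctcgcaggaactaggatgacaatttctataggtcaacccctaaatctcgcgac

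Matches were counted on both strands for the letters TGCGCA found in NRF-1 sites, the core CGGAAG bound by ETS factors such as GABP, the ERR receptor motif AAGGTCA, the YY1 motif AAGATGG, the SP1 motif GGGCGG and the box CCAAT, none of which overlapped another here. Cox5b held TGCGCA 52 bases before the start. Cox6b1 held the ETS core 120 and 28 bases before the start and CCAAT at 177 and 74 bases, and Cox5a held the ETS core at 54 bases and GGGCGG at 13 bases. In Cox7b the 1 match was CCAAT, 233 bases before the start, and Ndufa4 and Cox7c had none of these motifs in the window. In all 32851 promoter windows of the table, TGCGCA was present in 6.43% (1 of the 6 genes here), CGGAAG in 13.6% (2 of 6), AAGGTCA in 4.08% and AAGATGG in 4.49% (0 of 6 for both), GGGCGG in 32.7% (1 of 6) and CCAAT in 33.8% (2 of 6). Base composition differed between the windows, with 63.2% G and C and 26 CpG dinucleotides in Cox5a, 62.4% and 22 in Cox5b, 54.0% and 14 in Cox6b1, 51.6% and 10 in Ndufa4, 46.4% and 9 in Cox7c and 43.6% and 5 in Cox7b, against medians of 52.4% and 6 over all windows. A match is a stretch of letters and was not tested for binding.

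Of 12 tested regulators of such promoters, 3 were called higher, which were the 3 PGC-1 family genes, and 3 lower, against 13.6% and 8.28% of all tested genes. The probe sets of Ppargc1a and Ppargc1b did not show the labelled deletions, so a rise in working transcript cannot be read from them. Esrra, the gene of the receptor ERRα, fell by 0.42 ± 0.057 (limma adjusted p = 5.57e-05), Esrrb by 0.25 ± 0.073 (adjusted p = 0.0204) and Gabpa, the DNA-binding subunit of GABP, by 0.21 ± 0.051 (adjusted p = 0.00693). Esrrg, Nrf1, Yy1, Sp1, Gabpb1 and Gabpb2 did not pass, with changes from −0.018 to 0.11. The median of the 12 was 0.028.

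Of the 10 tested genes for subunits that come as isoforms, 6 were called lower and 0 higher, with a median of −0.34. Of all tested genes 8.28% were called lower and 13.6% higher. Cox4i1, whose product joins the core early with that of Cox5a, fell by 0.98 ± 0.056 (12.25 to 11.27, limma adjusted p = 5.04e-09). The ubiquitous forms Cox7a2, Cox8a and Cox6a1 fell by 0.80 ± 0.060, 0.71 ± 0.056 and 0.52 ± 0.047. Of the heart and muscle forms, Cox7a1 fell by 0.37 ± 0.047 (13.56 to 13.19, limma adjusted p = 2.90e-05, 5 of 5 tamoxifen arrays below all vehicle arrays). Cox6a2 read 13.40 and 13.28 and Cox8b 13.76 and 13.69, with adjusted p of 0.0720 and 0.290. These heart and muscle forms were also the brighter ones, from 13.40 to 13.76 in the vehicle arrays. There Cox7a2, Cox8a and Cox6a1 read 11.97, 11.64 and 10.18. The part of signal level in this difference was not tested. After a further quantile normalization, 9 of the 10 isoform genes were called lower, as were 1692 of all tested genes. The range of the isoform genes, −0.98 to 0.0020, covered that of the 6 single-isoform genes but for Cox5b. With members chosen by name, no test was made between the lists.

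COX2, a core subunit made from mitochondrial DNA, was read by 2 probe sets that carry its symbol. The brighter (10353630) read 13.85, 13.93, 14.01, 13.98 and 13.93 in the vehicle arrays and 13.82, 13.88, 13.96, 13.86 and 13.99 in the tamoxifen arrays, and the groups overlapped. Its change was −0.038 ± 0.051 (limma adjusted p = 0.652), and the other (10598038) changed by −0.026 ± 0.054. Their 95% intervals, −0.15 to 0.070 and −0.14 to 0.089, lay above those of Cox5b, Ndufa4, Cox6b1, Cox5a and Cox6c (highest bound −0.19) and overlapped that of Cox7b (−0.33 to −0.12). These probe sets lie in the same bright range as Cox6c and Cox7b, and copies of mitochondrial DNA in the nuclear genome were not separated.

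**Figure D4:**
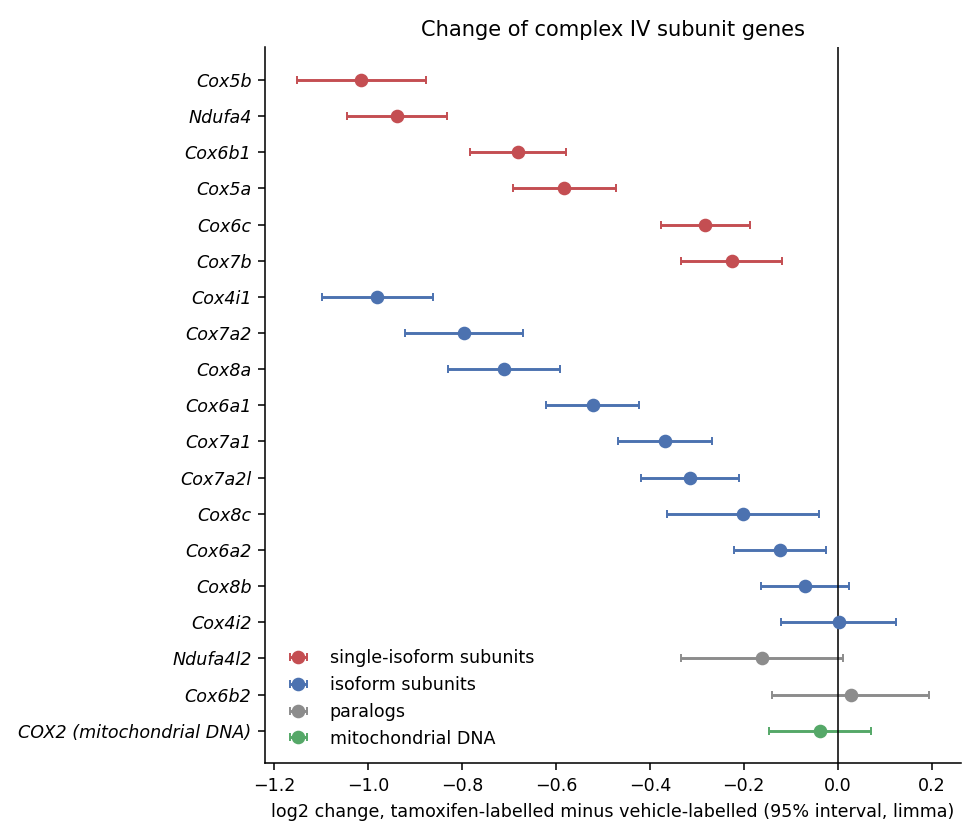
Log2 change, tamoxifen minus vehicle (x axis), with its 95% interval from limma, for the 6 single-isoform subunits (red), 10 isoform subunits (blue), 2 paralogs (grey) and COX2 of mitochondrial DNA (green). The red intervals all lie below 0, from Cox5b at −1.01 to Cox7b at −0.23, while those of COX2 and both paralogs span 0.

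Of 28 listed genes that assemble complex IV, 22 had a tested probe set. Of these 22, 17 were called lower and 0 higher, with a median of −0.29. The shares over all tested genes were 8.28% lower and 13.6% higher. Both tested genes of haem a synthesis fell, Cox10 by 0.75 ± 0.050 (limma adjusted p = 2.29e-08) and Cox15 by 0.27 ± 0.048. Of the 8 that act on COX1 synthesis and its first assembly steps, 6 fell, including Timm21 by 0.77 ± 0.086 and Taco1, an activator of COX1 translation, by 0.66 ± 0.061. Of 5 copper delivery genes 3 fell, among them the copper chaperone gene Cox17 by 0.24 ± 0.058, while Cox19 read 9.05 and 9.19 (adjusted p = 0.160). Of 5 genes for the COX2 and COX3 modules 4 fell, with Higd1a at −0.34 ± 0.049, and both genes of the late steps, Cmc2 and Coa7, fell by 0.38 and 0.31. Cox5b and Ndufa4 each had a deeper change than any of the 22, whose lowest was that of Timm21.

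All 10 tested genes of complex III and cytochrome c, which hand electrons to complex IV, were called lower, where 8.28% of all tested genes were. Their median was −0.91, with a range from −1.13 (Cyc1, the cytochrome c1 gene) to −0.19 (Uqcrb). Cycs fell by 0.70 ± 0.075 (13.81 to 13.11, limma adjusted p = 4.51e-06), close in size to Cox6b1.

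The genes with the most similar profiles were found by the root mean square difference over the 10 arrays, each gene being taken relative to its vehicle mean. For Cox5b these were Ndufab1 and Idh3b (0.038 and 0.061 log2 units), and for Ndufa4 they were Atp5l and Fh1 (0.048 and 0.052). Cox6b1 was nearest to Uqcrc2 and Immt (0.030 and 0.031), and Cox5a to Gfm1 and Sod2 (0.029 and 0.035). Cox6c was nearest to Atp5b and Clybl (0.031 and 0.032) and Cox7b to Ndufa3 and Gstm3 (0.026 and 0.032). The average of the 6 was nearest to Idh3g, Timm23, Immt, Timm17a and Sod2, from 0.027 to 0.046. The measure includes the difference between the groups, so genes with a like change score as near. Among the 6 themselves the nearest were Cox6c and Cox7b, at 0.064.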

How the data were processed

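The deposited values are log2 signals per probe set. The authors computed them by RMA, with Expression Console 1.1 named in the submitters' processing notes. They are written with 2 decimals and with no detection call. RMA corrects the background, normalizes arrays to each other and summarises probes. The sources used here name no genome build. Per the labels' protocols, 450 ng of RNA per mouse was labelled. Of 35556 probe sets, 21789 had 1 gene symbol, 1621 several and 12146 none, and names came from the 1-symbol probe sets only. Identifiers were looked up in a RefSeq gene table of GRCm38.p6, which changed 0 symbols and lacked 91 probe sets' identifiers.

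A gene with several probe sets (999 genes) was read from the brightest by mean, and the dimmest 30% of genes (mean log2 below 6.53) were left out. Groups were compared with limma 3.58.1 (R 4.3.3), using two-sided tests from lmFit and eBayes without covariates, with Benjamini-Hochberg adjustment over 13957 genes and a threshold of 0.05. All arrays differed from each other, and since nothing in the labels says that the mice came from separate litters, p-values measure the spread between these mice. Precision is limited by the 5 arrays in each group. The pair test had been set for 21 pairs and ran on the 15 that have values. It permuted the arrays without regard to replicate number. The members and lists were chosen with earlier results of these data known. Genes are named by list, and the nearest genes by a fixed rule that skips predicted genes. The code was tested on simulated data. The alternatives were a block for the replicate number, a trended robust prior, array weights, quantile normalization, median centring, filters of 0% and 50%, probe sets averaged per gene, each probe set as its own row, limma for the pairs, each array left out in turn and, added after seeing the data, the dimmer probe set. Motifs and figures were made in Python 3.11.15 (matplotlib 3.10.9).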

Additional observations from a re-analysis of the deposited data

Results flagged for a closer look

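Of the 12 groups of 5 values (6 genes in each of the vehicle and tamoxifen arrays), 1 held a value far from the others, where about 1 in 20 groups is marked by chance. Ndufa4 read 12.19 in vehicle array 1 and 12.27 to 12.30 in the other 4 vehicle arrays, so that the gap below took up 0.727 of the whole range, above the critical value of 0.71. Without that array the change of Ndufa4 was −0.96 (limma adjusted p = 1.20e-08).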

How the results depend on the processing

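All 6 subunit genes were called lower under every alternative tried. Their changes ran from −1.08 to −0.97 for Cox5b, −0.97 to −0.91 for Ndufa4, −0.71 to −0.66 for Cox6b1, −0.62 to −0.56 for Cox5a, −0.31 to −0.27 for Cox6c and −0.43 to −0.19 for Cox7b, where the lowest value of Cox7b comes from its dimmer probe set. The number of unequal pairs lay between 12 and 14 of 15. With array quality weights 1784 of all tested genes were called lower, against 1155 with equal weights. The count was 1649 without tamoxifen array 2, 1732 after median centring and 1692 after quantile normalization. Over all alternatives it ran from 938 to 1784, so the share of 8.28% depends on the processing. The isoform, assembly and complex III lists held 6 to 9, 15 to 17 and 9 to 10 genes called lower. With the replicate block, 1297 genes were called lower and Cox7b had an adjusted p of 0.00572 (limma). The replicate numbers are not treated as pairs, since the correlations of same-numbered arrays' deviations from the group means ran from 0.037 to 0.20 and not all exceeded 0.1. As a hint from the data, 4 of the 5 vehicle arrays correlated best with the tamoxifen array of the same number. The pair test was not run within replicate numbers, so its p-values do not allow for such a pairing.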

Other observations

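The remaining subunit gene, Cox7c, is read by 3 probe sets that the annotation gives to the pseudogene Gm12338 as well. No level is thus assigned to either gene. These shared probe sets read 13.82 ± 0.026, 13.91 ± 0.026 and 14.02 ± 0.036 in the vehicle arrays and 13.54 ± 0.083, 13.64 ± 0.070 and 13.76 ± 0.068 in the tamoxifen arrays (SD, n = 5), differences of −0.27, −0.27 and −0.25. On each of them all 5 tamoxifen arrays lay below all 5 vehicle arrays, which was so for 6.12% of all tested genes.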
